A study of Mus musculus with 9 samples.

Results

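The Hippo pathway was followed through 10 of its genes, chosen by name: the kinases Lats1 and Lats2, the coactivators Yap1 and Wwtr1, the DNA-binding partners Tead1 and Tead3, and the target genes Ccn1, Ccn2, Ankrd1 and Amotl2. All 10 were found among the 54838 gene identifiers of the count table, and all 10 passed the filter on low counts that left 13153 genes for testing. RNA was sequenced from PDA530 Met, a mouse pancreatic ductal adenocarcinoma line established from a metastasis in the liver of 1 male KPC mouse of mixed 129/SvJae/C57Bl/6 background. The sample labels give that name, while the text on the design writes PDA50 Met for the parental group, and both are read here as 1 line. All 3 groups share that origin, and no group was treated. The knockout clone (E4, 3 libraries) was edited in Zdhhc20, a palmitoyltransferase, with CRISPR/Cas9. The control clone (C5, 3 libraries) had received the same guide RNAs without successful editing, and 3 libraries came from parental cells. Each of the edited and unedited groups is 1 clone grown from 1 cell, so clone and genotype cannot be told apart, and p-values measure the spread between cultures of a clone.

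In the Hippo pathway, the kinases encoded by Lats1 and Lats2 phosphorylate the coactivators YAP (Yap1) and TAZ (Wwtr1) and keep them out of the nucleus. In the nucleus YAP and TAZ have no DNA-binding domain of their own and act through TEAD transcription factors, which recognise the core motif GGAATG. Their best known target genes encode matricellular proteins (Ccn1 and Ccn2), a muscle-type ankyrin repeat protein (Ankrd1) and feedback inhibitors of the pathway (Lats2 and Amotl2). YAP is known for its part in pancreatic ductal tumours. RNA levels say nothing of the phosphorylation or location of these proteins, which were not measured.

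The TEAD core motif was looked for in the promoters of the 10 genes, since YAP and TAZ reach their targets through TEADs. Sequences were taken from RefSeq (GRCm38.p6), from 250 bases before to 50 bases after each start site, and 8 of the 10 genes were matched, leaving Tead1 and Ccn2. GGAATG or its reverse complement CATTCC stood in at least 1 promoter of 7 of these 8 genes, all but Lats1, against 16.6% of the 27025 genes in the same table. It stood in 7 of the 31 matched genes of the list of other core Hippo genes (22.6%), 3 of 5 from the list of other TEADs and VGLL cofactors, and 3 of 11 from a published set of further YAP and TAZ targets (27.3%). The upstream 250 bases of Ccn1 (chr3:145649986-145650235, minus strand, no annotated exon) are shown with 1 further base, the first from the start site. Windows of 30 bases around the motif in other genes follow. All are shown 5′ to 3′ along the gene, with the motif in capitals.
Ccn1: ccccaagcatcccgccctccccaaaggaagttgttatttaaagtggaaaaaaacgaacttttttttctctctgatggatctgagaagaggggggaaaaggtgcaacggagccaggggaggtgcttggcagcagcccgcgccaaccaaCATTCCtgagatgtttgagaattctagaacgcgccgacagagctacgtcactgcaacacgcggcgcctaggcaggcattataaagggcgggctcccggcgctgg
Ankrd1, upstream: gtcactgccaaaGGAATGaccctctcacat
Ankrd1, near: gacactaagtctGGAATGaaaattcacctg
Amotl2: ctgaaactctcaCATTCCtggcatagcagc
Tead3: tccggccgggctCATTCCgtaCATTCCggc
Yap1: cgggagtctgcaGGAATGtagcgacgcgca

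The Ccn1 motif began 103 bases before the start site, at position -103. The Ankrd1 windows (chr19:36120037-36120066 and chr19:36119950-36119979, minus strand) hold motifs at -210 and -123, and 1.36% of all promoters of this length held 2 or more. The Amotl2 window (chr9:102717727-102717756, plus strand) holds its motif at -65. Tead3 has 3 promoters in the table, and the window shown (chr17:28350706-28350735, minus strand) holds motifs at -123 and -114. The Yap1 window (chr9:8004720-8004749, minus strand) holds its motif at -141. Wwtr1 held 1 motif (chr3:57576029-57576058), and in Lats2 the motif lay at position 5 after 1 of its 2 start sites (chr14:57746102-57746131). These matches are descriptions of sequence, and binding was not measured. Positions count from RefSeq start sites, and the windows shown for Ankrd1, Amotl2 and Tead3 lie inside the annotated genes. Annotated exons covered 250 of the 250 upstream bases in Ankrd1, 217 in the Tead3 promoter shown, 136 in Amotl2 and 17 in Yap1.

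Totals per library ran from 16525869 to 23192701 counts. Zdhhc20 stood at 37.5, 33.9 and 42.5 CPM (counts scaled to each library's size by the TMM method) in the knockout clone against 123, 85.8 and 120 in the control clone and 75.3, 81.2 and 90.7 in parental cells, so the labels and the targeted gene point the same way. Keratin and adhesion genes of ductal epithelium mark the labelled cell type. The 8 ductal markers summed to between 4410 and 4550 CPM in the knockout clone, 7290 to 9750 in the control clone and 6820 to 8300 in parental cells, although Epcam, one of them, stayed at or below 0.635 CPM. Fibroblast, endothelial, leukocyte and acinar marker lists summed to at most 4, 0.525, 2.84 and 7.66 CPM, with Col1a2, Dcn, Lum, Cd3e, Cpa1 and Prss1 at 0 counts in every library.

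Control clone replicate 2 stood apart from the other control libraries in the Hippo genes, which bears on every comparison with the control clone. It also bears on the knockout clone against parental cells, because the fit takes 1 estimate of the spread from all groups. In that comparison the standard error (SE) for Ccn1 was 0.45 with this library and 0.15 without it. For Ankrd1 it was 0.39 and 0.16, and for Yap1 0.07 in both fits. Against the mean of control replicates 1 and 3, the log2 CPM of control replicate 2 was higher by 1.93 for Ccn1, 1.68 for Amotl2, 1.57 for Ankrd1 and 1.06 for Lats2. Only 0.319% of tested genes were at least as far above for Ccn1, and 1.84% for Lats2. Tead1 and Ccn2 were each higher by 0.74 and Tead3 by 0.41, while Yap1 differed by 0.02 and Wwtr1 by -0.43. In all, 8 of the 10 genes lay above both other control libraries, against 39.9% of all tested genes. In the same library all 8 ductal markers lay below both others, as did 5178 of the 13153 tested genes, Zdhhc20 among them. Of 18 immediate early genes, 10 lay above both others. Control replicate 3 also departed from its group over all genes, with 5.26% of tested genes more than 1 log2 unit above the mean of the other control libraries, against 2.24% for replicate 2. In the knockout and parental libraries no Hippo gene lay more than 0.55 from the mean of the other libraries of its group. The part of this library in each result is given by values with and without it, and why it differs was not tested.

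**Figure D1:**
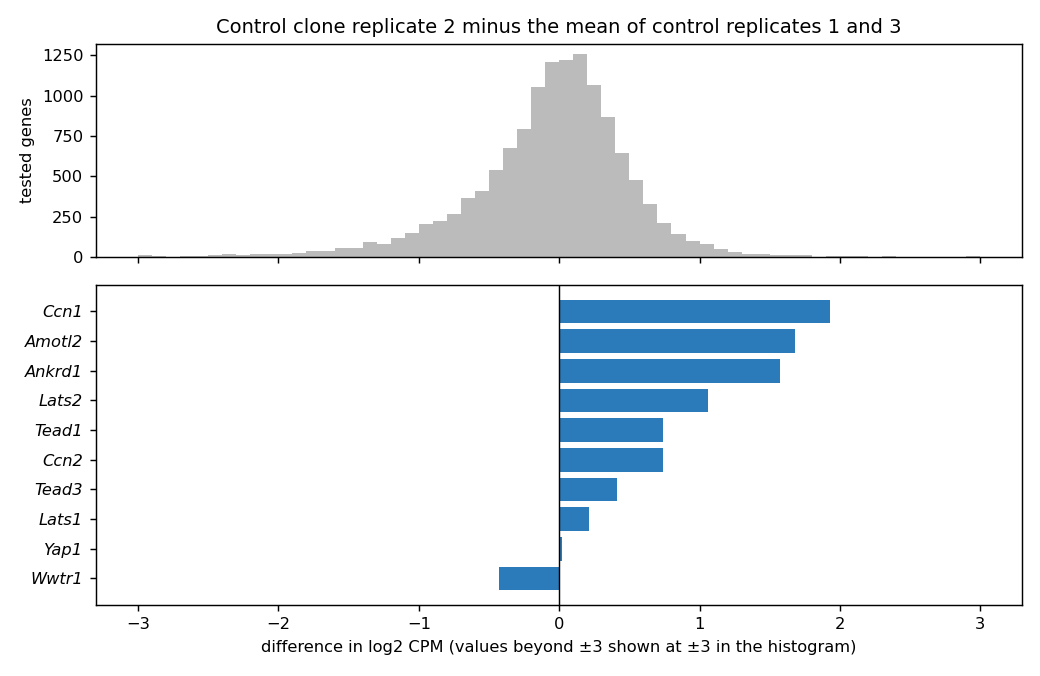
The upper panel counts all tested genes by their difference in log2 CPM between control clone replicate 2 and the mean of control replicates 1 and 3, and the lower panel gives the same difference for the 10 Hippo genes as bars. Ccn1 (1.93), Amotl2 (1.68), Ankrd1 (1.57) and Lats2 (1.06) lie in the right tail, and Wwtr1 (-0.43) is the only gene clearly to the left.

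**Figure D2:**
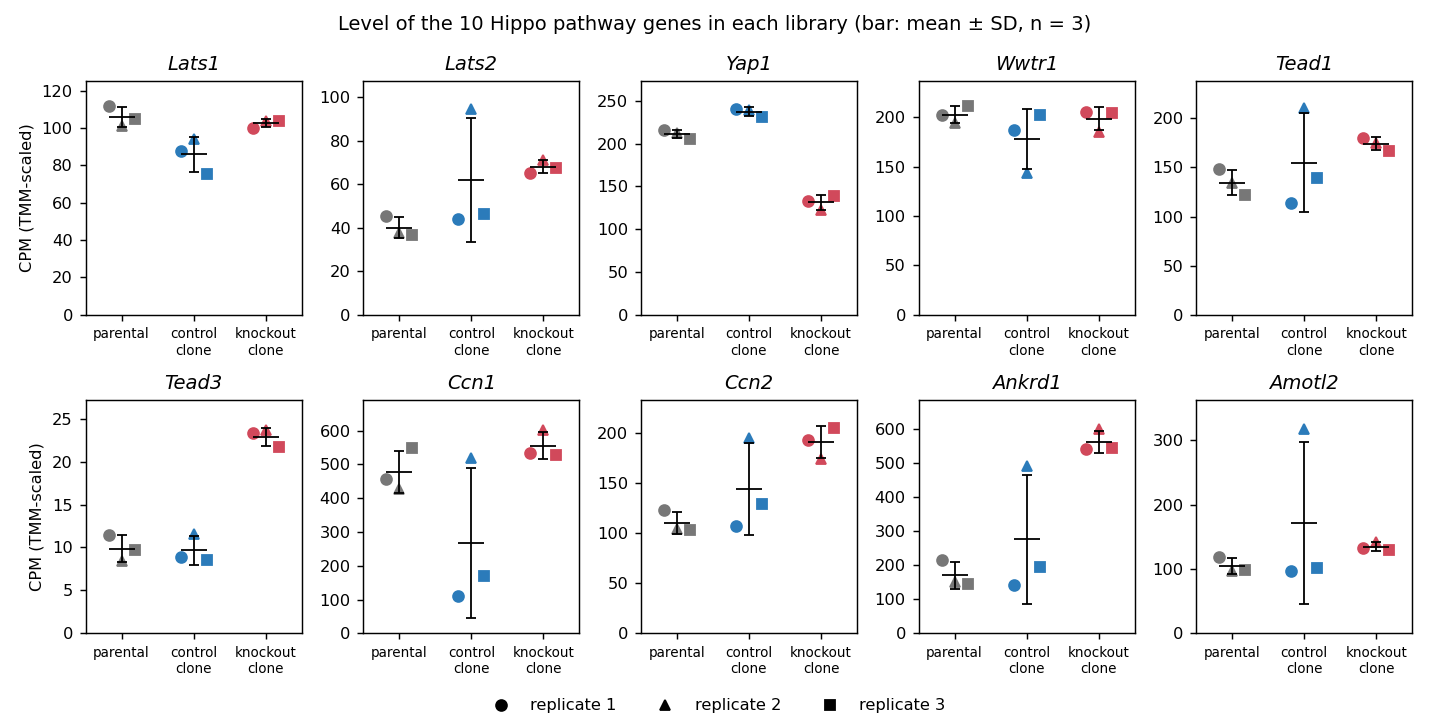
Each panel shows 1 Hippo gene, with CPM on an axis from 0 and a point per library (circle, triangle and square for replicates 1, 2 and 3); black bars are the mean and SD of 3 libraries. Yap1 is lowest and Tead3 highest in the knockout clone with no overlap with either other group, and the control clone triangle stands far above its group for Ccn1, Ankrd1 and Amotl2.

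In the comparison of the knockout clone with the control clone, 3 of the 10 genes passed edgeR's quasi-likelihood test at an adjusted p under 0.05 (called from here on): Lats1 and Tead3 were higher and Yap1 was lower. Among all tested genes 42.9% were called, 18.7% higher and 24.2% lower, so the Hippo genes were called no more often than genes at large. Against parental cells 5 were called, Lats2, Tead3, Ccn2 and Ankrd1 higher and Yap1 lower, where 31.4% of all tested genes were called, 13.1% higher and 18.3% lower. Lats1 alone was called between control clone and parental cells, and lower in the clone, where 21.4% of all genes were called, 10.4% higher and 11% lower. Tead3 was called higher in knockout libraries than in both other groups, as were 8.19% of tested genes, and Yap1 lower, as were 13.4%. With a log2 fold change of 1 or more in size also required, Tead3 was called against the control clone and Tead3 and Ankrd1 against parental cells, with 14% and 10.6% of all genes, and no Hippo gene between control clone and parental cells, with 6.47%. The libraries of the 2 groups did not overlap for 5, 7 and 2 of the 10 genes in the 3 comparisons, against 51.6%, 61.5% and 37.3% of all tested genes. These comparisons share libraries, so calls that recur are not independent. The median log2 fold change of the 10 genes was 0.21, 0.37 and 0.18 in the 3 comparisons in that order, against -0.02, -0.01 and 0.01 over all tested genes. Without control replicate 2, a choice made after its values were seen, 9 of the 10 were called between knockout and control clone, all but Wwtr1, as were 53.5% of all genes. Against parental cells 7 were then called for the knockout clone (42.2% of all genes) and 2 for the control clone (29.2%).

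**Figure D3:**
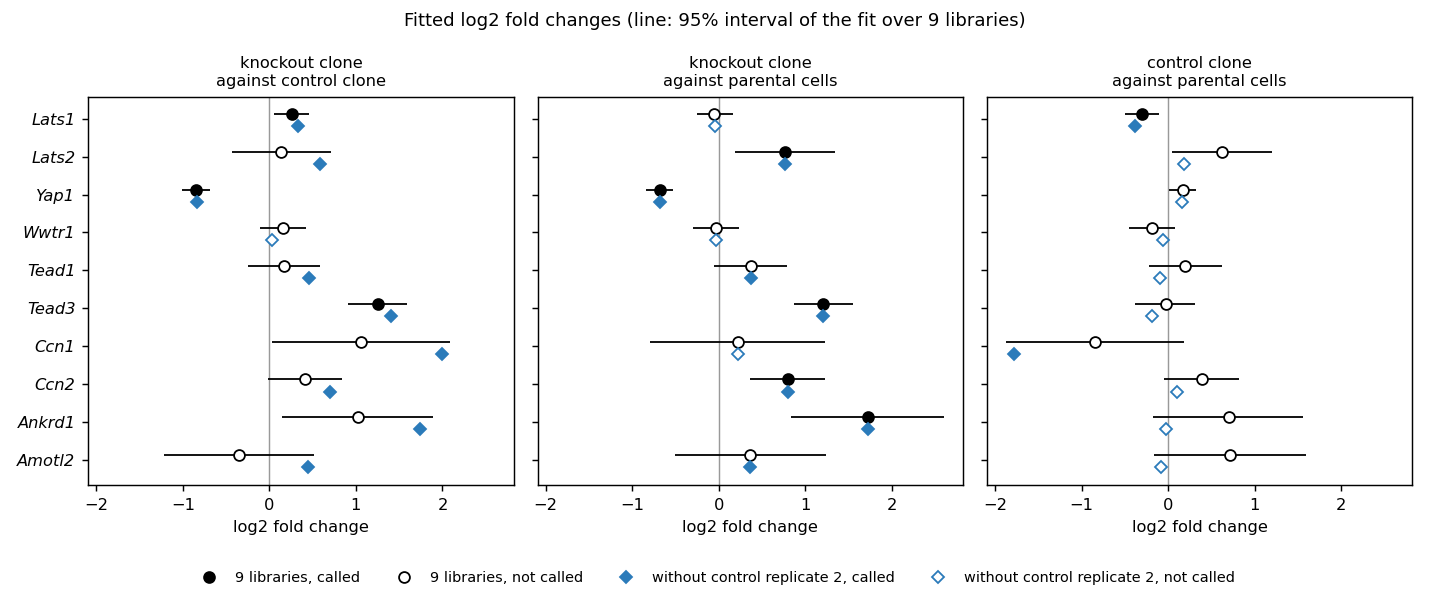
Fitted log2 fold changes of the 10 Hippo genes in 3 comparisons: black circles use all 9 libraries with the 95% interval as a line, blue diamonds leave out control clone replicate 2, and filled symbols passed an adjusted p under 0.05. Yap1 stays near -0.85 and Tead3 above 1 against the control clone under both fits, while Ccn1 moves from 1.06 to 2 and Amotl2 from -0.35 to 0.45.

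Of the kinases, Lats1 changed little and Lats2 was raised against parental cells. Lats1 (ENSMUSG00000040021, GRCm38 chr10:7681214-7716460) encodes the first of the paired kinases that phosphorylate YAP and TAZ. It stood at 100, 104 and 104 CPM in the knockout clone, 87.9, 94.2 and 75.5 in the control clone, and 112, 101 and 105 in parental cells. The control clone was thus lowest, without overlap with either other group. The log2 fold change was 0.26 (SE 0.09, edgeR adjusted p = 0.0442) for knockout against control clone and -0.30 (SE 0.09, edgeR adjusted p = 0.0411) for control clone against parental cells. Both lie close to the threshold, and each was called in 7 of 17 alternative settings, with adjusted p up to 0.11 and 0.124. For knockout against parental cells it was -0.05 with a 95% interval from -0.25 to 0.16.

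Lats2 (ENSMUSG00000021959, chr14:57689662-57758388), the second kinase and itself a target of YAP, stood at 65.3, 71.3 and 67.4 CPM in the knockout clone and 45.6, 37.7 and 36.7 in parental cells, which do not overlap. In the control clone it stood at 44.2, 94.6 and 46.5, so replicate 2 lay above every other library. The knockout clone was 1.7-fold higher than parental cells (log2 fold change 0.77, SE 0.26, edgeR adjusted p = 0.0472), a call kept in 11 of 17 alternatives, with 0.137 as the highest adjusted p. Against the control clone the difference was 0.14 (95% interval -0.43 to 0.71), and 0.59 without control replicate 2 (SE 0.1, edgeR adjusted p = 0.000983). Per kb of merged exon Lats1 was above Lats2 in the mean of each group: 14 ± 0.292 against 9.75 ± 0.432 CPM per kb in the knockout clone (SD, n = 3), 11.8 ± 1.31 against 8.86 ± 4.08 in the control clone, and 14.5 ± 0.775 against 5.73 ± 0.7 in parental cells. The control clone means are within their spread of each other. Lats2 lies on chromosome 14, 4 tested genes away from Zdhhc20, and the nearest tested genes on either side, 5 each way, held 2 called lower against both other groups, which were Zdhhc20 itself and Micu2, and 2 called higher. Over all tested genes 13.4% were called lower and 8.19% higher in that way.

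Of the paired coactivators, Yap1 was lower in the knockout clone and Wwtr1 was not called. Yap1 (ENSMUSG00000053110, chr9:7931999-8004596), which encodes YAP, stood at 133, 122 and 139 CPM in the knockout clone, 241, 239 and 231 in the control clone, and 216, 212 and 206 in parental cells. All 3 knockout libraries lay below all 6 others, and the control clone lay above parental cells. Yap1 was 1.8-fold lower than in the control clone (log2 fold change -0.85, SE 0.07, edgeR adjusted p = 3.09e-05) and 1.61-fold lower than in parental cells (-0.68, SE 0.07, edgeR adjusted p = 0.000156). Both calls were kept in 17 of 17 alternatives, and leaving out control replicate 2 gave -0.84. Gm20416, an antisense transcript that overlaps Yap1, held 7 counts over all libraries, and Gm49361, which overlaps Lats2, held 6. Control clone and parental cells differed by 0.17 (95% interval 0.01 to 0.32, edgeR adjusted p = 0.124).

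Wwtr1 (ENSMUSG00000027803, chr3:57455649-57575910), which encodes TAZ, stood at 206, 185 and 205 CPM in the knockout clone, 187, 144 and 203 in the control clone, and 203, 194 and 212 in parental cells. The 3 groups overlapped, and it was called in none of the 3 comparisons or their 17 alternatives. The log2 fold change was 0.16 against the control clone (95% interval -0.11 to 0.42) and -0.03 against parental cells (-0.30 to 0.23), intervals that do not reach the fall of Yap1. The ratio of Yap1 to Wwtr1 CPM was 0.662 ± 0.0175 in the knockout clone (SD, n = 3), 1.36 ± 0.265 in the control clone and 1.04 ± 0.0647 in parental cells. Its 3 values in the knockout clone, 0.646, 0.659 and 0.681, lay below all others, the lowest of which was 0.97. The exact two-sided permutation test gave p = 0.1 for each pair of groups, the smallest that 3 against 3 allow. Per kb of merged exon, TAZ transcript was the more abundant of the 2 in every group, at 41.5 against 14.2 CPM per kb in the knockout clone, 37.3 against 25.6 in the control clone and 42.4 against 22.8 in parental cells. This order depends on annotated lengths, 9.26 kb for Yap1 and 4.78 kb for Wwtr1, and the lengths of the transcripts expressed were not known. By mean CPM, Yap1 was above Wwtr1 in the control clone (237 against 178) and parental cells (211 against 203). It was below Wwtr1 in the knockout clone (131 against 199).

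Yap1 lies on mouse chromosome 9, whose tested genes were on the median lower in the knockout clone. The median log2 fold change of the 748 tested genes of chromosome 9 was -0.53 against the control clone and -0.53 against parental cells, and -0.02 between the control clone and parental cells. Of these genes 44.8% were called lower in both knockout comparisons, against 13.4% of all tested genes. Yap1 lay 0.32 below the chromosome's median in the first comparison and 0.15 below it in the second, and 31.7% and 39.6% of the chromosome's genes were at or below its value. Of the 10 nearest tested genes, 5 on each side, 5 were called lower in both knockout comparisons and 2 higher. Birc2, an inhibitor of apoptosis whose gene neighbours Yap1, was -0.75 (edgeR adjusted p = 0.000208) and -0.73 (edgeR adjusted p = 0.000389). Birc3, beside it, was -0.53 and -0.24 and was not called in either. These neighbours were examined after the values of Yap1 were seen. The other chromosomes that carry the 10 genes (3, 7, 10, 14, 17 and 19) had medians between -0.06 and 0.21 in the same comparisons. Copy number was not measured, and the part of the chromosome's shift in the level of Yap1 was not tested.

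**Figure D4:**
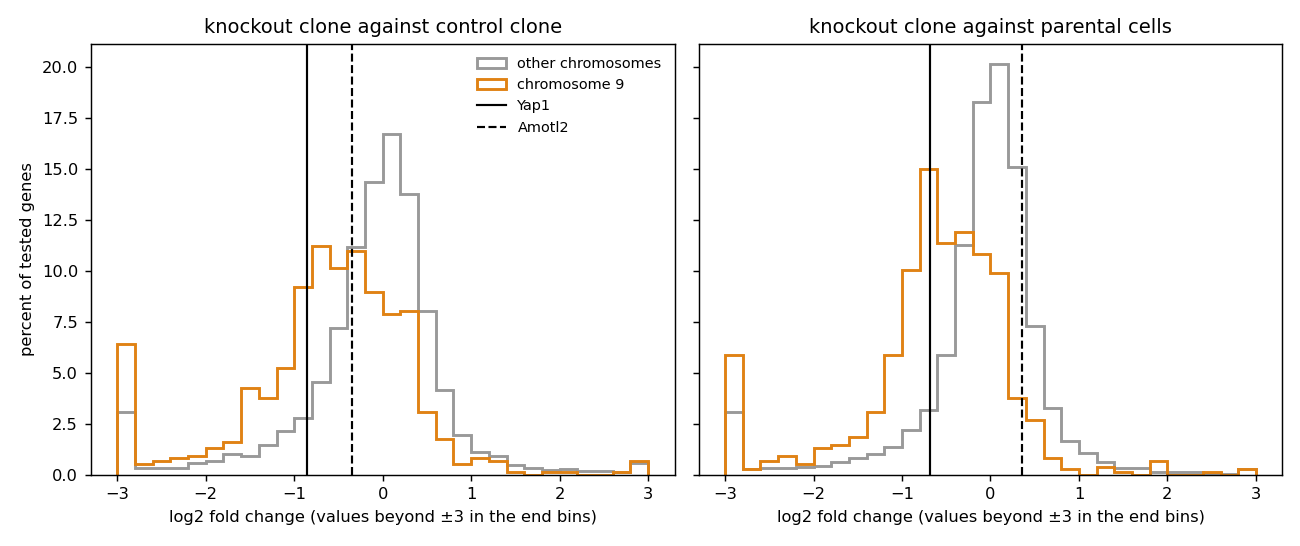
The percent of tested genes by log2 fold change is shown for chromosome 9 (orange) and for all other chromosomes (grey), in both comparisons of the knockout clone; values beyond ±3 are in the end bins. The orange curve lies to the left of the grey one, the solid line (Yap1, -0.85 and -0.68) falls within its body, and the dashed line (Amotl2, -0.35 and 0.36) lies to the right of Yap1.

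Among the TEAD genes, Tead3 was raised in the knockout clone and Tead1 was not called. Tead3 (ENSMUSG00000002249, chr17:28331671-28350817) stood at 23.3, 23.7 and 21.7 CPM in the knockout clone, 8.86, 11.6 and 8.5 in the control clone, and 11.5, 8.43 and 9.65 in parental cells. The knockout libraries were all above the 6 others, which overlapped among themselves. It was 2.38-fold higher than in the control clone (log2 fold change 1.25, SE 0.15, edgeR adjusted p = 0.000225) and 2.32-fold higher than in parental cells (1.21, SE 0.15, edgeR adjusted p = 0.000424). Both calls were kept in 17 of 17 alternatives, with log2 fold changes from 1.17 to 1.40 and from 1.11 to 1.34. The control clone and parental cells differed by -0.03 (95% interval -0.38 to 0.31).

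Tead1 (ENSMUSG00000055320, chr7:112679318-112906807) stood at 180, 175 and 167 CPM in the knockout clone, 114, 211 and 139 in the control clone, and 148, 134 and 122 in parental cells. The knockout libraries lay above the parental ones and inside the spread of the control clone. The log2 fold change was 0.17 (95% interval -0.25 to 0.59, edgeR adjusted p = 0.494) against the control clone and 0.37 (-0.05 to 0.79, edgeR adjusted p = 0.164) against parental cells. Without control replicate 2 these were 0.46 (edgeR adjusted p = 0.00481) and 0.37 (edgeR adjusted p = 0.01), both called.

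The TEAD family was rounded out by Tead2 and Tead4, which differed most in the control clone. Tead2 stood at 56.7, 47.2 and 54.5 CPM in the knockout clone, 37.8, 34.6 and 37.7 in the control clone and 72.4, 70.4 and 59.9 in parental cells, with no overlap between any pair of groups and a call in all 3 comparisons. Tead4 stood at 29.7, 31.2 and 26.5, at 36.4, 58 and 40.5, and at 29.3, 23 and 23.2 CPM in the same order, and the control clone was called higher than both others. Per kb of exon Tead3 was the least abundant of the 4 in every group. Its share of the summed TEAD level per kb was 9.65% ± 0.389 in the knockout clone (SD, n = 3), 4.38% ± 0.328 in the control clone and 4.51% ± 0.539 in parental cells. The Tead1 share was 36.3% ± 0.571, 34% ± 3.98 and 30.5% ± 0.149, so Tead3 was a small part of the family transcript in each group. These shares depend on annotated merged exon lengths, not on the lengths of the transcripts expressed.

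**Figure D5:**
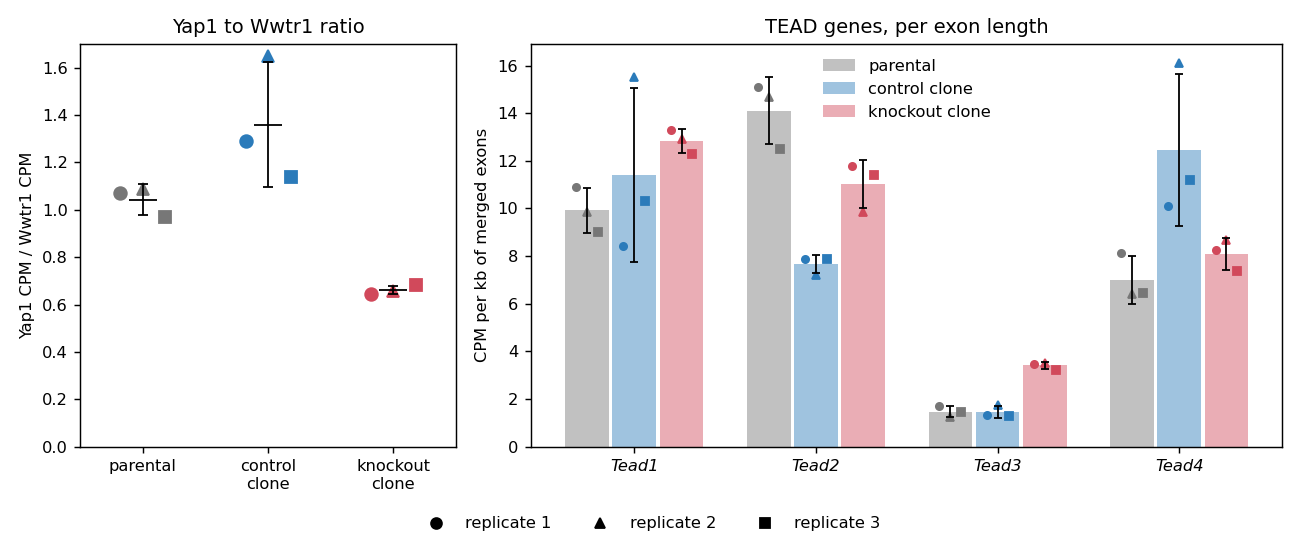
Left, the ratio of Yap1 to Wwtr1 CPM in each library, with the mean and SD of 3 libraries per group; right, CPM per kb of merged exon for 4 TEAD genes, with bars for group means, points for libraries and lines for the SD. The ratio is 0.662 in the knockout clone and above 0.9 in every other library, and Tead3 is the lowest TEAD gene in each group while being highest in the knockout clone.

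Of the 4 target genes, Ankrd1 and Ccn2 were higher in the knockout clone than in parental cells, and Ccn1 and Amotl2 were not called in any of the 3 comparisons of the edgeR fit described above. Ankrd1 (ENSMUSG00000024803, chr19:36111961-36120099), a nuclear and sarcomeric ankyrin repeat protein used as a readout of YAP activity, stood at 542, 600 and 545 CPM in the knockout clone, 217, 152 and 144 in parental cells and 142, 494 and 195 in the control clone. The knockout libraries were above all 6 others, with control replicate 2 next. Against parental cells Ankrd1 was 3.29-fold higher (log2 fold change 1.72, SE 0.39, edgeR adjusted p = 0.00976), kept in 17 of 17 alternatives with adjusted p up to 0.0448. Against the control clone it was 1.02 (SE 0.39, edgeR adjusted p = 0.0577), and was called in 5 of 17 alternatives. Of these, 4 kept all libraries: total-count scaling (edgeR adjusted p = 0.0482), no filter on low counts (0.00628), limma voom (0.0237) and the replicate numbers as a block. The other left out control replicate 2 and gave 1.74 (SE 0.19, edgeR adjusted p = 6.28e-05).

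Ccn2 (ENSMUSG00000019997, chr10:24595442-24598683), a secreted matricellular protein long known as connective tissue growth factor, stood at 193, 174 and 205 CPM in the knockout clone, 123, 104 and 103 in parental cells, and 107, 195 and 129 in the control clone. The knockout libraries lay above all parental ones, and control replicate 2 fell among them. Against parental cells the log2 fold change was 0.80 (SE 0.19, edgeR adjusted p = 0.0127), kept in 16 of 17 alternatives, the exception being the fit without parental replicate 3 at 0.0504. Against the control clone it was 0.41 (95% interval -0.02 to 0.84, edgeR adjusted p = 0.112), and 0.70 without control replicate 2 (edgeR adjusted p = 0.000756). An antisense transcript, Gm15270, shares exon bases with Ccn2 and held 110 counts over all libraries, and whether the counting used strand is not given in the sources used here.

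Ccn1 (ENSMUSG00000028195, chr3:145646976-145649981), the related matricellular protein known as CYR61, gave a different order of groups. It stood at 534, 601 and 529 CPM in the knockout clone, 456, 427 and 548 in parental cells, and 109, 520 and 170 in the control clone. The knockout and parental libraries overlapped, and only control replicates 1 and 3 were low. Knockout and parental cells differed by 0.22 (95% interval -0.80 to 1.23) in the fit of all libraries. That interval reaches beyond a 2-fold change, but its spread is shared with the control clone. Without control replicate 2 the difference was again 0.22, with an SE of 0.15 (edgeR adjusted p = 0.276). Against the control clone Ccn1 was 1.06 (SE 0.46, edgeR adjusted p = 0.0883), although the libraries did not overlap. It was called in 4 of 17 alternatives: without a filter on low counts (edgeR adjusted p = 0.0145), with limma voom (adjusted p = 0.0296), with the replicate numbers as a block, and without control replicate 2. In that last fit the log2 fold change was 2 (SE 0.18, edgeR adjusted p = 2.32e-05). Without that library the control clone was also called lower than parental cells, at -1.78 (SE 0.18, edgeR adjusted p = 0.000259), where the fit of all libraries gave -0.84 (edgeR adjusted p = 0.22). The ratio of Ccn1 to Ccn2 CPM was 2.94 ± 0.462 in the knockout clone (SD, n = 3), 1.67 ± 0.875 in the control clone and 4.39 ± 0.844 in parental cells, and the knockout and parental values did not overlap (exact two-sided permutation p = 0.1, the smallest possible).

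Amotl2 (ENSMUSG00000032531, chr9:102716672-102733418), an angiomotin family scaffold that binds YAP and restrains it, stood at 133, 142 and 129 CPM in the knockout clone, 119, 96.4 and 99 in parental cells, and 96.4, 317 and 102 in the control clone. The knockout libraries lay above the parental ones and control replicate 2 above every other library. The log2 fold change against the control clone was -0.35 (95% interval -1.22 to 0.52) with all libraries and 0.45 without control replicate 2 (edgeR adjusted p = 0.00407), so 1 library sets its sign. Against parental cells it was 0.36 in both fits, not called with all libraries (edgeR adjusted p = 0.513) and called without control replicate 2 (edgeR adjusted p = 0.00812). Amotl2 shares chromosome 9 with Yap1, and lay 0.18 and 0.90 above the chromosome's median in the 2 knockout comparisons.

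The ratio of Ankrd1 to Yap1 CPM was 4.3 ± 0.545 in the knockout clone (SD, n = 3), 1.17 ± 0.791 in the control clone and 0.806 ± 0.17 in parental cells. Its lowest knockout value, 3.91, was above the highest other value, 2.07 in control replicate 2. Control replicates 1 and 3 stood at 0.589 and 0.843, beside 1, 0.716 and 0.7 in parental cells. Replicate 2 thus sets the order of the control clone and parental means. Orders of genes by level per kb depend on annotated merged exon lengths, as the lengths of the transcripts expressed were not known. Per kb of exon, Ccn1 was the most abundant of the 10 genes in the mean of each group and Tead3 the least. Between them, in parental cells, came Ankrd1 (59.2), Wwtr1 (42.4), Ccn2 (38.4), Yap1 (22.8), Amotl2 (16.7), Lats1 (14.5), Tead1 (9.92) and Lats2 (5.73 CPM per kb). Of neighbours in that order, the library values of Wwtr1 (40.5 to 44.4) and Ccn2 (35.9 to 42.9) overlapped, and so did those of Amotl2 (15.3 to 18.9) and Lats1 (13.8 to 15.3). In the knockout clone Ccn2 (66.6 ± 5.5) stood above Wwtr1 (41.5 ± 2.47), and Yap1 (14.2 ± 0.952) was within its spread of Lats1 (14 ± 0.292).

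Across the 9 libraries, 10 of the 45 pairs of these genes had a Pearson correlation of log2 CPM above 0.8. The highest was 0.974 for Ccn2 and Ankrd1, followed by 0.93 for Lats2 and Ccn2 and 0.927 for Lats2 and Tead1. The lowest was -0.942 for Yap1 and Tead3, and -0.851 for Wwtr1 and Amotl2 was next. These are descriptions over 9 libraries of 3 groups, which include the group differences and control replicate 2. Among 10019 other genes the closest in pattern to Ankrd1 was Thbs1, which encodes the matricellular protein thrombospondin, at 0.988, then Pus7l at 0.988 and Tmcc3 at 0.982. Closest to Ccn2 were Cfap43 (0.987), Pibf1 (0.982) and Dot1l (0.98), and closest to Ccn1 were Cep83 (0.952), Smad7 (0.95) and BC048403 (0.946).

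Other genes of the pathway were read from a list of 39 names of upstream kinases, scaffolds and STRIPAK phosphatase subunits, of which 35 could be tested. Against the control clone the knockout clone had 12 called higher and 11 lower, and against parental cells 9 and 6. For the control clone against parental cells the counts were 4 and 5. Called genes made up 65.7%, 42.9% and 25.7% of the 35, against 42.9%, 31.4% and 21.4% of all tested genes. Their median log2 fold changes were 0.03, 0.03 and -0.05, close to those of all tested genes, and both directions were called in each comparison. Without control replicate 2 the called genes numbered 27, 21 and 15 in the 3 comparisons, in place of 23, 15 and 9, where 53.5%, 42.2% and 29.2% of all genes were called. Stk3 and Stk4, the MST kinases that activate the LATS kinases, were both called higher in the knockout clone, Stk3 by 0.56 and 0.43 and Stk4 by 0.52 and 0.27 on the log2 scale against control clone and parental cells. Nf2, the merlin scaffold upstream of LATS, was higher than in the control clone (0.37, SE 0.1, edgeR adjusted p = 0.0124) and not called against parental cells (0.12).

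The angiomotin family, to which Amotl2 belongs, split. Amot stood at 31.5, 30.8 and 27.7 CPM in the knockout clone, 14.3, 12 and 18.9 in the control clone and 21.1, 21.2 and 18.3 in parental cells, and was called higher by 0.99 and 0.57. Amotl1, which lies on chromosome 9, stood at 23.5, 23.6 and 24.2, at 29.9, 31.9 and 42, and at 71.9, 70.7 and 62.5 CPM in the same order. It was called lower by -0.54 and -1.52. Of the MAP4K kinases, which also activate LATS, Mink1 was called lower by -1.10 and -0.83 and Map4k1 by -0.76 and -1.29, the latter at no more than 2.41 CPM. Map4k2 was called lower by -0.34 and -0.61, while Map4k4 (0.50, edgeR adjusted p = 0.00147) and Map4k3 (0.37, edgeR adjusted p = 0.0366) were called higher than in the control clone and not called against parental cells. Stk26, a STRIPAK-associated kinase, had 0, 1 and 0 counts in the knockout clone, 8, 5 and 15 in the control clone and 56, 46 and 60 in parental cells. As with 7.01% of tested genes, Strn3 (0.72 against parental cells), Wtip (0.52), Wwc1 (0.35) and Stk25 (0.35) were higher in the control clone than in both other groups. Ptpn14 (-0.52), Map4k4 (-0.33) and Stk24 (-0.29) were lower there than in both, as were 6.41%. Vgll4, a cofactor that competes with YAP for TEADs, was called higher in the knockout clone by 0.50 and 0.29, while Vgll1, Vgll2 and Vgll3 were too low to test.

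A published set of 17 further YAP and TAZ targets, of which 15 were tested, was read in the same way. For the knockout clone 5 were called higher and 1 lower against the control clone, and 2 and 4 against parental cells, with medians of 0.24 and 0.21. Against parental cells these counts moved with the tool, to 4 higher and 4 lower with DESeq2, 3 and 4 with limma voom, and 6 and 4 with edgeR on only the groups compared. The 5 called in the control clone against parental cells were all lower, with a median of -0.21 over the list, and none was higher in edgeR at an unadjusted p under 0.05 or in DESeq2. Calls made up 40%, 40% and 33.3% of the 15 genes in the 3 comparisons, against 42.9%, 31.4% and 21.4% of all tested genes. Leaving out control replicate 2 gave 8, 8 and 6 calls, where 53.5%, 42.2% and 29.2% of all genes were called. Ptpn14, which encodes a phosphatase that holds YAP in the cytoplasm and stands on both lists, was called higher in the knockout clone by 0.95 and 0.42. Nt5e, which encodes the ectonucleotidase CD73 and lies on chromosome 9 like Yap1, stood at 5.71, 5.23 and 6.01 CPM in the knockout clone, 117, 84.8 and 159 in the control clone and 82.6, 94 and 116 in parental cells. This was a log2 fold change of -4.41 (SE 0.25, edgeR adjusted p = 3.89e-06) and -4.11 (edgeR adjusted p = 9.18e-06). F3, the tissue factor gene, stood at 17.9, 45.6 and 18.1 CPM in the control clone, 65.5, 79.3 and 66.4 in the knockout clone and 68.5, 56.9 and 50.2 in parental cells. All 3 control libraries lay below all others, and F3 was called against both (log2 fold change of knockout over control clone 1.38, edgeR adjusted p = 0.00757, and of control clone over parental cells -1.12, edgeR adjusted p = 0.0368). Fjx1, which stood at 0.524, 0.773 and 0.63 CPM in the control clone, was also low in all 3 control libraries, and the knockout (3.81, 4.51 and 4.38) and parental libraries (5.06, 5.54 and 3.82) overlapped.

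Immediate early genes answer serum within a short time, and Ccn1 and Ccn2 were first described among them. Of 18, the knockout clone had 15 called higher and 1 lower against the control clone and 9 and 6 against parental cells. Over all tested genes, 18.7% rose and 24.2% fell by the same test with the control clone as reference, and with parental cells 13.1% rose and 18.3% fell. In the control clone 12 were called against parental cells, all lower, and none was higher in edgeR at an unadjusted p under 0.05 or in DESeq2. The share called was 88.9%, 83.3% and 66.7%, against 42.9%, 31.4% and 21.4% of all tested genes. Leaving out control replicate 2 gave 16, 17 and 13 calls, where 53.5%, 42.2% and 29.2% of all genes were called. Their summed level was 1810 to 1900 CPM in the knockout clone, 834 to 1080 in the control clone and 1470 to 1630 in parental cells. The part of these genes' differences in the Hippo target levels was not tested.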

How the data were processed

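The 9 libraries (3 per group) came from a KAPA mRNA HyperPrep kit, per the labels. The authors deposited 1 table of RSEM gene counts (estimated counts, all whole numbers); STAR 2.5.2, RSEM 1.3.0, DESeq2 1.10.1 and GRCm38 come from the submitters' processing notes. Counts were tested with edgeR 4.0.16 (quasi-likelihood test, TMM scaling, filterByExpr with a minimum count of 10 and total of 15, 1 fit of all libraries), with Benjamini-Hochberg adjustment over 13153 genes and a threshold of 0.05. GENCODE M21 on GRCm38 gave symbols, coordinates and merged exon lengths for 54809 identifiers. Of the listed names only Map4k6 was not matched; it is another name of Mink1, which is on the same list, so no gene was missing.

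The 10 genes and all lists were chosen with earlier results of these data known. All 10 were named in every comparison. From the other lists were named Tead2, Tead4, Nf2 and up to 5 genes per list for the knockout clone, and up to 5 for the control clone, called the same way against both other groups and ranked by the smaller change; Stk3, Stk4, Map4k2, Map4k3, Map4k4, Stk24, Micu2, Birc2 and Birc3 were added after their values were seen. For 3 targets, the 3 genes with the highest correlation among those of at least 5 mean CPM were named.

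Alternatives changed scaling, filter, tool (DESeq2 1.42.0, limma 3.58.1), replicate block, libraries in the fit, and left out each library. Replicate numbers were checked for pairing: over 9 same-numbered pairs of libraries, correlations of deviations ran from -0.223 to 0.344 with 3 above 0.1, so they were not taken to pair. In data simulated for knockout against control clone, 69.8% of 63 genes changed 2-fold and 31% of 71 changed 1.5-fold were recovered among 12923. Far fewer genes changed there than the 5643 called in the data, which makes the adjustment stricter. These rates therefore do not measure the sensitivity of the real comparison. Intervals of the fit are 95% intervals. No library pair agreed within sampling noise.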

Additional observations from a re-analysis of the deposited data

How the results depend on the processing

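Yap1 and Tead3 kept direction and call against both other groups in 17 of 17 alternatives. With a log2 fold change of 1 or more in size also required, 1843, 1392 and 851 genes and 1, 2 and 0 of the 10 Hippo genes were called for knockout against control clone, knockout against parental cells and control clone against parental cells. Fitting only the groups compared gave 6840 genes against parental cells for the knockout clone, and 1525 genes and 0 Hippo genes for the control clone. limma voom called 5 Hippo genes between knockout and control clone, among 5654 genes called. Leaving out 1 library at a time gave 4301 to 7204, 2515 to 5693 and 1472 to 4102 genes, and 2 to 9, 3 to 7 and 0 to 2 Hippo genes, in the same order. The lowest gene counts for the last 2 came without parental replicate 3 and parental replicate 1, and 3 Hippo genes were left against parental cells without parental replicate 3. The highest counts of Hippo genes came without control clone replicate 2, equalled without replicate 3 in the last comparison. Where 0 were called there, edgeR gave 3 at an unadjusted p under 0.05 with the block and 1 with only the groups compared, and DESeq2 and limma voom each called 1 with all libraries, among 3354 and 2774 genes.

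The same omissions turned the sign of changes that were not called. Against the control clone, the knockout clone ran from -0.05 to 0.59 for Lats2, -0.01 to 0.46 for Tead1 and -0.64 to 0.45 for Amotl2, and against parental cells from -0.07 to 0.02 for Wwtr1. Control clone against parental cells ran from -0.09 to 0.38 for Tead1, -0.19 to 0.08 for Tead3, -0.02 to 1.01 for Ankrd1 and -0.08 to 1 for Amotl2. Sign turns came without control clone replicate 2 for Amotl2, for Ankrd1 and for Tead1 in the control clone, and without other libraries for Lats2, Tead3, Wwtr1 and Tead1 in the knockout clone; the cause was not tested. With the replicate block, 5528, 3941 and 2492 genes and 4, 5 and 0 Hippo genes were called, and 4 of 9 libraries correlated best with their own number. It also called Ccn1 (1.27, edgeR adjusted p = 0.0416) and Ankrd1 (1.14, edgeR adjusted p = 0.0379) higher in the knockout than in the control clone. Over all 17 alternatives these edgeR, DESeq2 and limma adjusted p ran from 2.32e-05 to 0.194 and from 6.28e-05 to 0.145. Scaling by total counts raised the share of calls that were lower from 51.3% to 61.2% for control clone against parental cells. Tead3, at 8.43 to 23.7 CPM, is the least covered of the 10 genes.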
